A study of Mus musculus with 15 samples.

Results

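The 4 genes Cubn, Amn, Lrp2 and Dab2, which encode an endocytic receptor complex known from the visceral endoderm, were followed in mouse embryonic stem cells carrying the hairpin sh4 or the control hairpin shCTR. They were found by their gene name among the probes of 15 Agilent arrays, with the brightest probe taken for each gene, and are 4 of the 25145 genes tested. The groups were sh4 cells given 1 µM retinoic acid for 72 hours (3 arrays), shCTR cells given the same treatment (4 arrays), untreated sh4 cells (4 arrays) and untreated shCTR cells (4 arrays). All 4 groups carried a hairpin, so none shows cells without one, and the labels name neither the target of sh4 nor the cell line. The study's title names Phf19, a protein that works with the histone H3 lysine 27 methylating complex PRC2. The labels call the arrays of a group biological replicates but do not say whether they came from separate cultures, so a p-value here measures the spread between these samples, which may be partly technical. They give no time in culture for the untreated cells, so retinoic acid and culture time cannot be told apart.

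The visceral endoderm is the absorptive layer around the early mouse embryo. Cells of this layer take up proteins, lipids and vitamins from maternal fluid through clathrin-coated pits at their apical surface, and the same machinery serves the kidney's proximal tubule. Cubn (cubilin) is a large peripheral receptor for intrinsic factor with vitamin B12, apolipoprotein A-I, albumin and transferrin, and has no membrane-spanning part of its own. Amn (amnionless) is a membrane protein that carries cubilin to the cell surface and holds it there. Lrp2 (megalin) is a giant receptor of the LDL receptor family that binds many of the same proteins, and Dab2 is the clathrin adaptor that binds the tails of such receptors. Retinoic acid is widely used to drive embryonic stem cells out of the pluripotent state. Polycomb complexes such as PRC2 are known to sit at promoters rich in CG dinucleotides in these cells, which is why the promoters of the members are shown here.

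The 250 bases before each annotated start are RefSeq's, on GRCm38.p6, given 5′ to 3′ on the gene's strand with every CG in capitals. All 4 members matched the RefSeq table, which lists 1 start each for Cubn at chr2:13491877-13492126 (minus strand), Amn at chr12:111270846-111271095 (plus strand) and Lrp2 at chr2:69586030-69586279 (minus strand). Dab2 has 2 listed starts, with windows at chr15:6299539-6299788 and chr15:6386498-6386747 (plus strand).
Cubn: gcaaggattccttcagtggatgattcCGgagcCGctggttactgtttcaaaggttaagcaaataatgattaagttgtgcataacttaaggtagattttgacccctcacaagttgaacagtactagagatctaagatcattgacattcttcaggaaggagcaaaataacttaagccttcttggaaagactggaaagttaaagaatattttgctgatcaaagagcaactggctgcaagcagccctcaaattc
Amn: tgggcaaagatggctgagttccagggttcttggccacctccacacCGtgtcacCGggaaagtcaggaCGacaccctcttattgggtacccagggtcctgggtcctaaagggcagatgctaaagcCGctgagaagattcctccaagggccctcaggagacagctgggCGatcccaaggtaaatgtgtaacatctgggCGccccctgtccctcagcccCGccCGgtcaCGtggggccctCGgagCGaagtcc
Lrp2: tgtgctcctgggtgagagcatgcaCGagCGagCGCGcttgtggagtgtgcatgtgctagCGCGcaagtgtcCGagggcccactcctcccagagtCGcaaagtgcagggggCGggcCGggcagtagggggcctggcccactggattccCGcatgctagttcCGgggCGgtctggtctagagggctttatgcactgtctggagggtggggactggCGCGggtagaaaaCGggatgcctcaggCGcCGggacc
Dab2, first window: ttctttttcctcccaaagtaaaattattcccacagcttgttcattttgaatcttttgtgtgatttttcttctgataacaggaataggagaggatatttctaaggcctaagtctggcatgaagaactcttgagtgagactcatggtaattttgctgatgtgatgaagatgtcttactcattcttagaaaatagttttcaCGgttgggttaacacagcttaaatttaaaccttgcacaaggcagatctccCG
Dab2, second window: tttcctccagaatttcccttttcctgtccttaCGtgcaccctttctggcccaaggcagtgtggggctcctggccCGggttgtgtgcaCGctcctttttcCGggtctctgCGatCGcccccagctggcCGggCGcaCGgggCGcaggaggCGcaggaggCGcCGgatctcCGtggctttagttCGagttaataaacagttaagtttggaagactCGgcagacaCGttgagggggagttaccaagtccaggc

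The members did not share a promoter type. The window of Cubn held 2 CG dinucleotides and the first window of Dab2 also held 2, a number that 18.8% of the 32851 promoters in the table fall below. The windows of Amn, Lrp2 and the second Dab2 start held 11, 18 and 17, against a median of 6 over all promoters. A search of both strands covered 5 short motifs, chosen after the sequences had been seen: GATAA (GATA factors), ACAAT (SOX factors), GTTAAT (HNF1), TGTTNAC (FOXA) and AGGTCA (nuclear receptors). No motif was found in the windows of Cubn, Amn or Lrp2. The first Dab2 window held GATAA at position -178 and TGTTNAC at -45, counted from the start, and the second held GTTAAT at -65; of all promoters, 22.6%, 8.69% and 6.43% held these motifs. ACAAT was held by 27.7% of all promoters and AGGTCA by 4607 of them.

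Each level below is the log2 of the scanner's processed signal minus the 75th percentile of the same array, so 0 is that percentile. Levels were compared between groups within a probe and never between probes. A change was called where limma's adjusted p, over all 25145 genes, was under 0.05. The share of probes well above background was 73.8% to 79.4%, no spot was saturated, and the 75th percentile lay between 1509 and 1911 signal units. The scanner software rated 3 arrays for evaluation: replicate 1 of the treated sh4 cells, replicate 3 of the untreated sh4 cells and replicate 2 of the untreated shCTR cells. The 15 arrays were spread over 4 slides, of which slide 4 held no sh4 array with retinoic acid. As a check of the hairpin, Phf19 was at -3.90, -3.97 and -3.71 in sh4 cells with retinoic acid, against -3.01, -3.06, -3.05 and -2.80 in shCTR cells with retinoic acid. Untreated sh4 cells had -2.61, -2.54, -2.51 and -2.54, against -0.93, -0.98, -0.70 and -0.69 in untreated shCTR cells, and the hairpin groups did not overlap in either condition. Phf19 was at 54.4% of the shCTR signal with retinoic acid and at 30.2% without. The hairpin effect on Phf19 with retinoic acid minus that without was 0.85 ± 0.13 (SE, limma adjusted p = 3.6e-04), so the contrast was weaker in treated cells. In shCTR cells with retinoic acid Phf19 was at 22.4% of the untreated shCTR signal (limma adjusted p = 7.3e-11). Treated shCTR cells, with a mean of -2.98, were thus below untreated sh4 cells, with -2.55.

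Cubn, the ligand-binding receptor, was read by 2 probes. The brighter, a 60-base probe at chr2:13197978-13198037 on mm9 (minus strand), was well above background on all 15 arrays and was used. It stood at 1.87, 2.10 and 2.30 in sh4 cells with retinoic acid, against 5.07, 4.92, 5.13 and 5.19 in shCTR cells with retinoic acid. Untreated sh4 cells had -3.85, -3.51, -3.31 and -3.45, against -2.40, -2.11, -2.28 and -2.19 in untreated shCTR cells. No groups overlapped: the order ran from shCTR with retinoic acid through sh4 with retinoic acid and untreated shCTR down to untreated sh4. The other Cubn probe, at chr2:13205609-13205668 on mm9 (minus strand), is shown because it reads the same transcript at a separate place.
Cubn, second probe: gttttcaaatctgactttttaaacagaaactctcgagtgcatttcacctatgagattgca
That probe was well above background on 3 of 3 sh4 arrays with retinoic acid, against 4 of 4 shCTR arrays with it, and on 0 of 4 untreated sh4 arrays, against 3 of 4 untreated shCTR arrays. It gave the same direction as the brighter probe in each comparison of 2 groups below.

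Amn, the membrane anchor of cubilin, was read by 1 probe of 60 bases whose mm9 coordinates, chr12:112514095-112514243 (plus strand), span 149 bases of the genome. Its sequence is shown because the pattern that sets Amn apart rests on this probe alone.
Amn, probe: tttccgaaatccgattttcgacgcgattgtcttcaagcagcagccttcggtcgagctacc
The level was -1.49, -1.49 and -1.30 in sh4 cells with retinoic acid, against 1.33, 1.16, 1.41 and 1.51 in shCTR cells with retinoic acid. Untreated sh4 cells had -1.68, -1.63, -1.27 and -1.44, against -0.50, -0.41, -0.49 and -0.33 in untreated shCTR cells. The sh4 arrays overlapped across treatment and lay below all shCTR arrays of either treatment. In shCTR cells the arrays with retinoic acid lay above the untreated ones.

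Lrp2, the giant receptor, was read by 1 probe at chr2:69262566-69262625 on mm9 (minus strand). It was at 1.89, 1.89 and 2.03 in sh4 cells with retinoic acid, against 3.07, 3.07, 3.34 and 3.31 in shCTR cells with retinoic acid. Untreated sh4 cells had 1.25, 1.31, 1.85 and 1.67, against 0.29, 0.47, 0.56 and 0.54 in untreated shCTR cells. The hairpin groups lay on opposite sides in the 2 conditions, sh4 below shCTR with retinoic acid and above it without. The sh4 groups of both treatments came close together, with the highest untreated array at 1.85 and the lowest array with retinoic acid at 1.89.

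Dab2, the clathrin adaptor, was read by 1 probe at chr15:6390616-6390675 on mm9 (plus strand). Its level was 0.49, 0.40 and 0.24 in sh4 cells with retinoic acid, against 2.96, 2.67, 2.63 and 2.82 in shCTR cells with retinoic acid. Untreated sh4 cells had -3.33, -3.41, -3.41 and -3.43, against -3.38, -3.18, -3.67 and -3.42 in untreated shCTR cells. The untreated groups overlapped, and the groups with retinoic acid lay above both and apart from each other. The probes of Amn, Lrp2 and Dab2 were well above background on all 15 arrays. In these bulk samples, fewer cells that express a gene and less RNA per cell cannot be told apart.

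**Figure D1:**
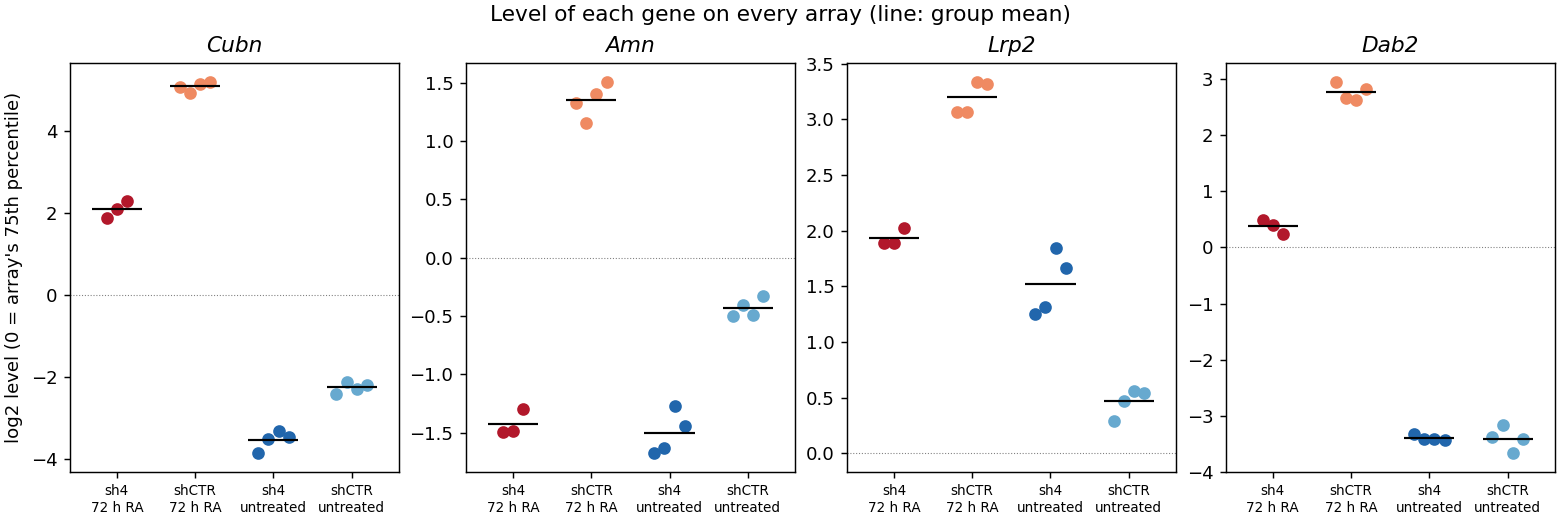
Log2 level of each gene (vertical axis, 0 is the array's 75th percentile) on every array, 1 point per array, in sh4 and shCTR cells with 72 hours of retinoic acid and in untreated sh4 and shCTR cells, with the group mean as a line; each panel has its own axis. The shCTR arrays with retinoic acid are highest in every panel, and Amn in sh4 cells averaged -1.43 with retinoic acid and -1.51 without.

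The first comparison asked what the hairpin did to the complex in differentiating cells. All 4 members fell in sh4 relative to shCTR cells under retinoic acid, where 21.2% of all genes were called, 10.9% higher and 10.3% lower. Cubn averaged 2.09 ± 0.21 in sh4 cells (SD, n = 3) and 5.08 ± 0.12 in shCTR cells (SD, n = 4), a change of -2.99 ± 0.13 (SE, limma adjusted p = 6.8e-09). That left 12.6% of the shCTR signal, and 23 of the 25145 genes fell at least as far, Cubn included. Amn averaged -1.43 ± 0.11 in sh4 cells and 1.35 ± 0.15 in shCTR cells, which is 14.6% of the shCTR signal, with a change of -2.78 ± 0.11 (SE, limma adjusted p = 2.6e-09). Dab2 averaged 0.38 ± 0.13 in sh4 cells and 2.77 ± 0.15 in shCTR cells, 5.25-fold lower, with a change of -2.39 ± 0.11 (SE, limma adjusted p = 1.1e-08). Lrp2 fell least, to 1.93 ± 0.08 in sh4 cells against 3.20 ± 0.15 in shCTR cells, a change of -1.26 ± 0.14 that left 41.6% of the shCTR signal (limma adjusted p = 2.1e-05). The sh4 arrays lay below every shCTR array for all 4 genes, as they did for 14.5% of all genes. Slide was fitted as a block because each slide held several groups, and the changes were then -2.96 for Cubn, -2.74 for Amn, -2.39 for Dab2 and -1.23 for Lrp2, all still called. Within slides 1, 2 and 3 they were -3.20, -2.82 and -2.84 for Cubn, -2.83, -2.64 and -2.71 for Amn, -2.47, -2.27 and -2.39 for Dab2, and -1.18, -1.18 and -1.31 for Lrp2. The second Cubn probe fell by 3.44 on the log2 scale.

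Without retinoic acid the hairpin comparison split the complex. Cubn and Amn fell in sh4 cells, Lrp2 rose, and Dab2 did not pass the test, so 3 of 4 members were called where 28.5% of all genes were, 14.4% higher and 14.1% lower. Cubn averaged -3.53 ± 0.23 in untreated sh4 cells and -2.24 ± 0.13 in untreated shCTR cells (SD, n = 4 each), a change of -1.29 ± 0.12 (SE, limma adjusted p = 2.6e-06) that left 40.9% of the shCTR signal. Amn averaged -1.51 ± 0.19 in sh4 cells and -0.43 ± 0.08 in shCTR cells, a change of -1.07 ± 0.10 (SE, limma adjusted p = 2.3e-06). Lrp2 averaged 1.52 ± 0.28 in sh4 cells and 0.47 ± 0.12 in shCTR cells, 2.08-fold higher, with a change of 1.05 ± 0.13 (SE, limma adjusted p = 2.4e-05). Dab2 averaged -3.39 ± 0.05 in sh4 cells and -3.41 ± 0.20 in shCTR cells, and its change of 0.02 had a 95% interval of -0.21 to 0.24 (limma adjusted p = 0.95). For Cubn and Amn every sh4 array was below every shCTR array, as for 14.2% of all genes, and for Lrp2 every sh4 array was above, as for 14.1% of all genes. With slide as a block the adjusted p-values were 2.3e-06 for Cubn, 1.9e-06 for Amn, 2.3e-06 for Lrp2 and 0.90 for Dab2, with the same changes. Over slides 1 to 4 the change lay between -1.45 and -1.03 for Cubn, -1.23 and -0.78 for Amn, 0.84 and 1.28 for Lrp2, and -0.23 and 0.26 for Dab2. The second Cubn probe was not well above background in untreated sh4 cells and was at least 1.52-fold lower there than in untreated shCTR cells.

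Retinoic acid raised all 4 members in shCTR cells, where 62.4% of all genes were called, 29% higher and 33.4% lower. Cubn rose by 7.32 ± 0.12 on the log2 scale (SE, limma adjusted p = 2.4e-14), to a signal 160.0-fold that of untreated shCTR cells, and 34 of the 25145 genes rose at least as far. Dab2 rose by 6.18 ± 0.10, or 72.5-fold (SE, limma adjusted p = 2.4e-14). Lrp2 rose by 2.73 ± 0.13, or 6.65-fold (SE, limma adjusted p = 3.0e-10), and Amn by 1.78 ± 0.10, or 3.45-fold (SE, limma adjusted p = 2.3e-09). The treated and untreated shCTR arrays did not overlap for any of the 4, as was so upward for 27.9% of all genes. Within the 4 slides the rise lay between 7.02 and 7.47 for Cubn, 5.85 and 6.34 for Dab2, 2.60 and 2.78 for Lrp2, and 1.56 and 1.90 for Amn, and slide as a block left the mean changes as they were. On the second probe Cubn rose by 8.12. The size of that rise is uncertain, since the probe read 9.46 to 12.6 signal units in untreated shCTR cells. It was well above background on 3 of those 4 arrays. The median change of all genes was -0.12 in this comparison.

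In sh4 cells retinoic acid raised Cubn and Dab2 and, by less, Lrp2. Cubn rose by 5.62 ± 0.13, or 49.2-fold (SE, limma adjusted p = 1.1e-12), and Dab2 by 3.77 ± 0.11, or 13.6-fold (SE, limma adjusted p = 6.1e-12). Lrp2 rose by 0.41 ± 0.14, or 1.33-fold (SE, limma adjusted p = 0.018). Amn did not pass the test, with a change of 0.08 ± 0.11 and a 95% interval of -0.15 to 0.31 (limma adjusted p = 0.57). That makes 3 of 4 members called, where 58.6% of all genes were called, 27.1% higher and 31.6% lower. Their 3 arrays with retinoic acid lay above the 4 untreated arrays for Cubn, Dab2 and Lrp2, as for 26.9% of all genes. The call for Lrp2 depended on the fit: with only the sh4 arrays in the model the adjusted p from limma was 0.068, and with slide as a block it was 7.3e-04. It was also lost without replicate 4 of the treated sh4 cells (limma adjusted p = 0.068), without untreated sh4 replicate 1 (0.054) and without untreated sh4 replicate 2 (0.054). Within slides 1, 2 and 3 the change was 0.64, 0.57 and 0.18 for Lrp2, 0.18, 0.15 and -0.03 for Amn, 5.72, 5.61 and 5.61 for Cubn, and 3.82, 3.81 and 3.65 for Dab2. The median change of all genes was again -0.12. The second Cubn probe was at least 38.8-fold higher with retinoic acid than in untreated sh4 cells, where it was not well above background.

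The hairpin effect differed between treated and untreated cells for every member, by the interaction term of the same model, which called 20.5% of all genes, 10.2% downward. This term is the sh4 effect with retinoic acid minus the effect without, and equally the retinoic acid change in sh4 cells minus that in shCTR cells. It was -1.70 ± 0.18 for Cubn (SE, limma adjusted p = 1.8e-05) and -1.70 ± 0.15 for Amn (SE, limma adjusted p = 3.3e-06). For Lrp2 it was -2.32 ± 0.19 (SE, limma adjusted p = 1.7e-06) and for Dab2 -2.41 ± 0.15 (SE, limma adjusted p = 2.1e-07). Lrp2 is the member whose hairpin effect changed sign, with 1.05 without retinoic acid and -1.26 with it. Dab2 is the member whose hairpin effect was called in treated cells alone, and the interaction is the test of that difference. With slide as a block the terms were -1.67, -1.67, -2.28 and -2.41 for Cubn, Amn, Lrp2 and Dab2. The second Cubn probe gave -1.27 ± 0.19 (SE, limma adjusted p = 3.8e-04). Its size is uncertain, since that probe was not well above background in untreated sh4 cells. Within slides 1 to 3 the terms of the probes used ranged from -1.81 to -1.41 for Cubn and -1.93 to -1.42 for Amn. For Lrp2 they ranged from -2.60 to -2.02 and for Dab2 from -2.65 to -2.04.

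**Figure D2:**
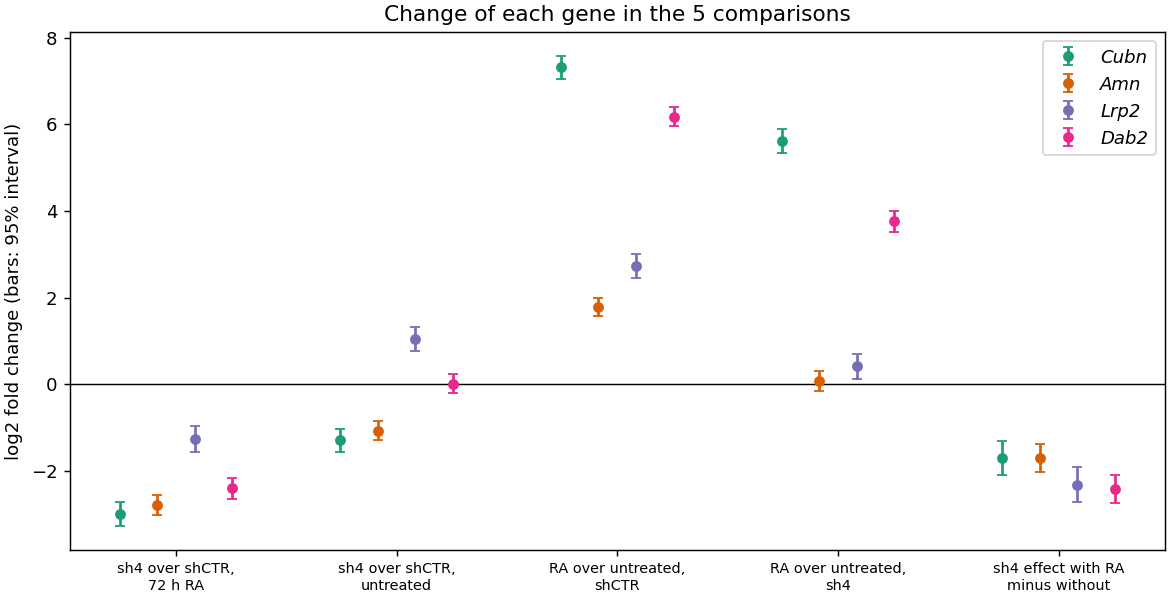
Log2 fold change of each gene (vertical axis) in the 5 comparisons (horizontal axis), with points for the limma estimate and bars for its 95% interval. All 4 genes lie below 0 in sh4 over shCTR with retinoic acid, whereas without it Cubn and Amn lie below, Lrp2 at 1.05 lies above, and the interval of Dab2 crosses 0.

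The members were then set against each other, since a change can be compared between probes where a level cannot. On each array the log2 level of 1 member was subtracted from that of another, and the groups were compared with an exact two-sided permutation test over arrays, for 6 pairs in each of 4 comparisons, with Benjamini-Hochberg adjustment over the 24 tests. The smallest p the design allows is 0.0286, and 22 of 24 differences reached it, with an adjusted p of 0.0312. Under retinoic acid the fall of Lrp2 in sh4 cells was smaller than that of Cubn by 1.73, of Amn by 1.51 and of Dab2 by 1.13 on the log2 scale. The difference of -0.39 between Amn and Dab2 did not pass (exact permutation p = 0.114), though it was -0.36, -0.37 and -0.32 within slides 1, 2 and 3, and the difference of -0.21 between Cubn and Amn was at the smallest p. In untreated cells the difference of -0.21 between Cubn and Amn did not pass (exact permutation p = 0.0571, adjusted p = 0.0596), though it was -0.28, -0.18, -0.25 and -0.16 within slides 1 to 4. The permutations exchanged arrays across slides, and a test within slides cannot reach the threshold with so few arrays. The retinoic acid change of Cubn exceeded that of Amn by 5.54 in sh4 cells and by 5.54 in shCTR cells. Their interaction terms, which both round to -1.70, restate this and are no separate result. Without any of the 3 sh4 arrays with retinoic acid, 0 of 24 passed, since the smaller design cannot reach the adjusted threshold.

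Over the 15 arrays Cubn and Dab2 followed each other most closely, with a Pearson correlation of 0.988 between log2 levels. It was 0.898 between Lrp2 and Dab2, 0.844 between Cubn and Lrp2, 0.736 between Cubn and Amn, 0.700 between Amn and Dab2, and 0.615 between Amn and Lrp2. These values describe 4 groups of arrays that share slides and are set mainly by the group means. Deviations from the group means gave another picture: 0.834 between Cubn and Amn, 0.868 between Amn and Lrp2, and 0.746 between Cubn and Lrp2, against -0.12, -0.04 and -0.34 between Dab2 and Cubn, Amn and Lrp2. No cause of the shared deviations was tested.

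Each member had its own nearest genes among the other 25141. Cubn was most like Pth1r, the parathyroid hormone receptor and a parietal endoderm marker (r = 0.998 over 15 arrays), followed by Akr1c13, Habp2, Snai1 and Angpt2, down to r = 0.997. Amn was most like Apom, an apolipoprotein (r = 0.998), then Pga5, Spint5, 4930550L24Rik and Creld2, down to r = 0.984. Apom averaged -2.27 in sh4 cells with retinoic acid, against 0.48 in shCTR cells with it, and -2.36 in untreated sh4 cells, against -1.28 in untreated shCTR cells, which is the order of groups seen for Amn. Lrp2 was most like Bend5 (r = 0.987), then Cited1, Pigg, Gm3346 and Pdzk1ip1, down to r = 0.980. Bend5 averaged 0.18 in sh4 cells with retinoic acid, against 1.81 in shCTR cells with it, and -0.41 in untreated sh4 cells, against -1.29 in untreated shCTR cells, so it too was on opposite sides in the 2 conditions. Apom and Bend5 were picked by their correlation with the member over these arrays, so a shared order of groups largely follows from the choice. Dab2 was most like Emp2, a membrane protein (r = 0.999), then Ttr, the thyroid hormone carrier transthyretin, Clic6, Ubash3b and Ugt1a6a, down to r = 0.997. No gene appeared in the nearest 5 of more than 1 member, but a cut at 5 is narrow. Of the 25141 genes, 93 were more like Cubn than Dab2 was, and 62 were more like Dab2 than Cubn was.

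**Figure D3:**
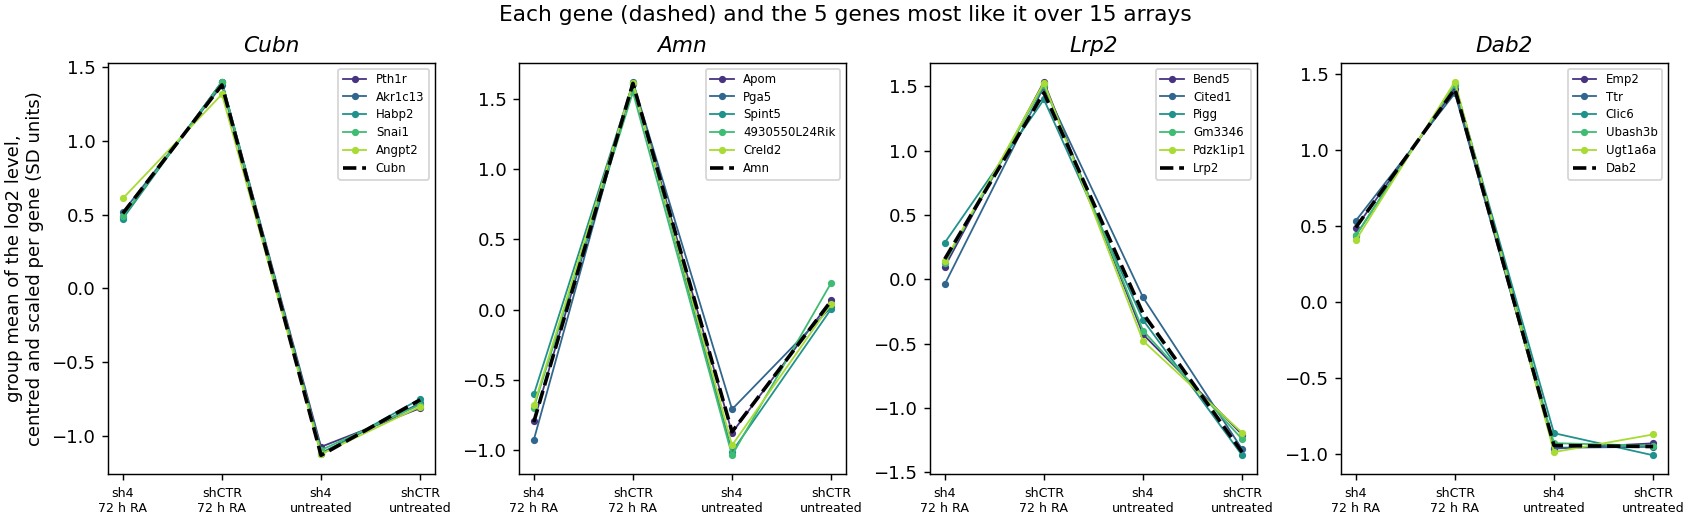
Group means of the log2 level, centred and scaled within each gene (vertical axis, SD units), for each member (dashed line) and the 5 genes with the highest Pearson correlation over 15 arrays, in the 4 groups from sh4 with retinoic acid on the left to untreated shCTR on the right. The lines of Cubn and Dab2 are close in shape (r = 0.988 over 15 arrays), whereas Amn is near its untreated sh4 mean in treated sh4 cells and Lrp2 is lowest in untreated shCTR cells.

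Proteins that fold, sort and recycle these receptors were taken as a list of 22, of which 21 passed the filter on dim probes. Counts of this list and those below stand beside the shares of all genes called higher and lower. In sh4 relative to shCTR cells these shares were 10.9% and 10.3% with retinoic acid, and 14.4% and 14.1% without. For retinoic acid over untreated they were 29% and 33.4% in shCTR cells, and 27.1% and 31.6% in sh4 cells. No list was tested as a set. Under retinoic acid 0 of the 21 rose in sh4 relative to shCTR cells, 8 fell and 13 did not pass. Their median change was -0.26, against 0.04 over all genes. The largest falls were those of Lrpap1, the chaperone that shields Lrp2 from its ligands during folding, at -2.25 ± 0.16 (SE, limma adjusted p = 4.9e-07), the motor protein Myo6 at -1.62 and the endosomal chloride transporter Clcn5 at -0.75. In untreated cells 5 rose and 3 fell, with Clcn5 at 0.88, the immunoglobulin receptor Fcgrt at -0.69 and Lrpap1 at 0.48. Retinoic acid raised 11 and lowered 6 of the 21 in shCTR cells, with Clcn5 at 3.40, Lrpap1 at 2.63 and the neuronal adaptor Dab1 at -1.98. In sh4 cells it raised 4 and lowered 6, with Dab1 at -1.99, Clcn5 at 1.76 and the AP-2 adaptor subunit Ap2a1 at -0.80. Lrpap1, like Lrp2, was called higher in untreated and lower in treated sh4 cells, but its untreated call (limma adjusted p = 0.026) was lost in 7 alternatives, with adjusted p-values of 0.064 to 0.17. They were normexp background, the authors' value table, leaving out the arrays rated for evaluation, and leaving out untreated sh4 replicate 3 or 4 or untreated shCTR replicate 1 or 2.

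The other receptors of the LDL receptor family, 12 measured of 13, were compared under retinoic acid first. None of the 12 was called lower in sh4 than in shCTR cells there, 2 were called higher and 10 did not pass, where 10.3% of all genes were called lower and 10.9% higher; the 2 were Sorl1, a sorting receptor, at 0.76 and Lrp6, a Wnt co-receptor, at 0.53, of which Lrp6 was not called as a mean over its probes (0.19, limma adjusted p = 0.24). In untreated cells 3 rose and 2 fell, among them Lrp1 at -0.71 and Lrp3 at 0.70. Retinoic acid raised 5 and lowered 2 in shCTR cells, and raised 6 and lowered 2 in sh4 cells. Lrp4 rose by 2.07 in sh4 cells and by 2.42 in shCTR cells, and Lrp8, a reelin receptor, by 1.81 and 2.01 in the same order.

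Proteins that Cubn or Lrp2 are known to bind were a list of 15, of which 12 were measured. In treated sh4 relative to treated shCTR cells 1 rose and 6 fell, with Ttr at -3.41, Apoa1 (apolipoprotein A-I) at -2.60 and the retinol carrier Rbp4 at -1.19. The size of the Apoa1 change is uncertain, since its probe was dim, at a mean log2 level of -7.05 in treated sh4 cells, against -4.45 in treated shCTR cells. In untreated cells 3 rose and 3 fell, with Rbp4 at -0.93, Apob at 0.67 and Bmp4 at -0.61. Apob, also the 1 visceral endoderm marker called higher there, was at 0.21 with normexp background and not called (limma adjusted p = 0.24). Retinoic acid raised 7 and lowered 3 in shCTR cells, and raised 7 and lowered 4 in sh4 cells, and Apoe fell by 3.32 in sh4 cells and by 2.78 in shCTR cells. Ttr was not well above background in untreated cells of either hairpin, and was at least 17.3-fold higher with retinoic acid in sh4 cells and at least 180.1-fold higher in shCTR cells.

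Transcription factors of the primitive and visceral endoderm were a list of 10, all measured. Under retinoic acid 0 rose and 8 fell in sh4 relative to shCTR cells, with a median change of -1.30; Hnf4a changed by -3.51, Sox7 by -2.51 and Gata4 by -2.47. In untreated cells 1 rose and 7 fell, with Sox7 at -2.05, Gata6 at -1.91 and Sox17 at -1.88. Retinoic acid raised 6 and lowered 3 in sh4 cells, and raised 8 and lowered 2 in shCTR cells, with Foxa2 at 6.18 in sh4 cells and 5.88 in shCTR cells.

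**Figure D4:**
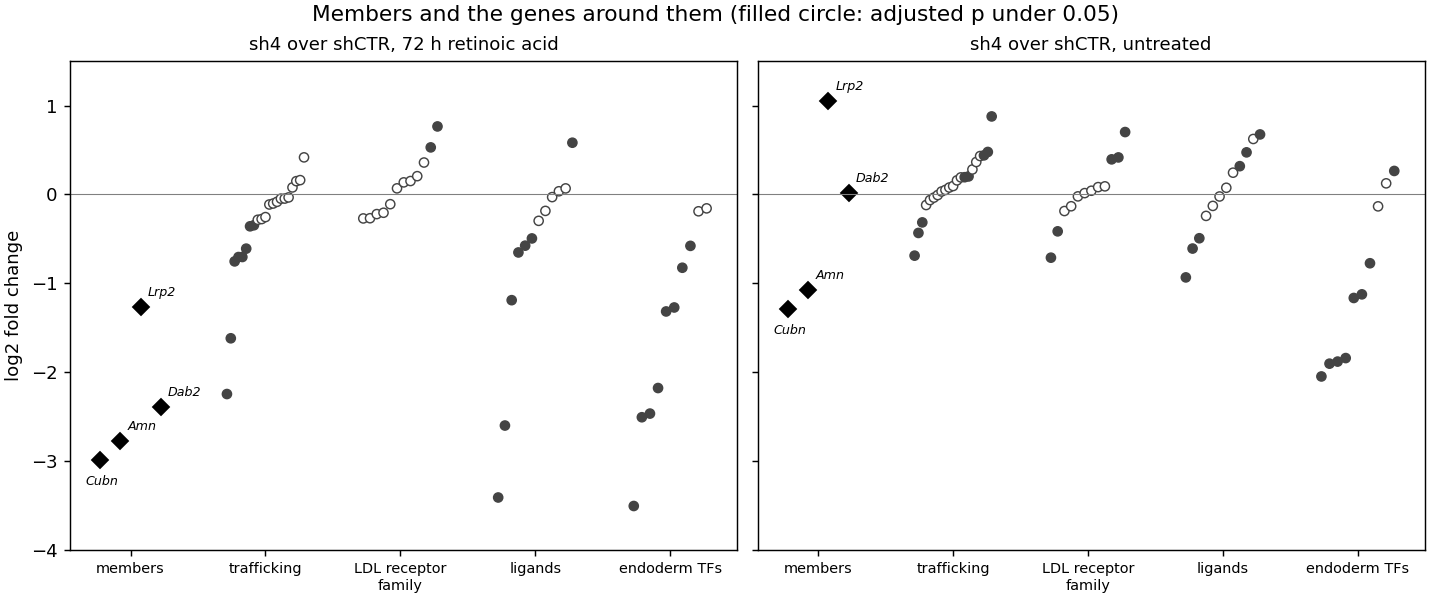
Log2 fold change of sh4 over shCTR (vertical axis) with retinoic acid (left) and untreated (right), with diamonds for the 4 members and circles for the genes of 4 lists, filled where the adjusted p was under 0.05; Dab2 on the right did not pass. On the left no trafficking gene or endoderm factor is called above 0, and Lrp2 at 1.05 on the right lies above every circle.

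Under retinoic acid most endoderm markers and most pluripotent cell markers moved in the same direction as the members. Trophoblast, neural and fibroblast markers were mixed, and the macrophage markers that were called were lower. Of 12 visceral endoderm markers, which include Apoa1, Apob, Rbp4, Ttr and Trf from the ligand list and Hnf4a from the factor list, 0 rose and 11 fell in sh4 relative to shCTR cells under retinoic acid, and 1 rose and 6 fell in untreated cells. Their summed linear level, relative to the 75th percentile, was 4.11 to 4.51 in sh4 cells with retinoic acid, 9.74 to 12.9 in shCTR cells with it, 4.41 to 5.45 in untreated sh4 cells and 6.25 to 8.10 in untreated shCTR cells. Bright genes weigh most in such sums, and the close sums of the sh4 groups hide changes of single markers. In sh4 cells retinoic acid raised 6 of the 12 and lowered 3. Trf, the brightest in treated sh4 cells, averaged a log2 level of 1.18 there, against 0.43 in untreated sh4 cells. Spink1 went from 1.03 in untreated to -3.35 in treated sh4 cells, and Afp from -8.03 to -3.43. The markers met the label of visceral endoderm in part. In shCTR cells retinoic acid raised 9 of the 12, Ttr, Afp (6.45) and Ihh (5.48) among them. It lowered 2, Spink1 (-2.31) and Soat2 (-1.32). The rise was not particular to these markers, since 29% of all genes were called higher in that comparison. Retinoic acid there also raised 11 of 12 parietal endoderm, 7 of 9 trophoblast and 7 of 8 fibroblast markers. Of the remaining lists it raised 4 of 9 neural, 3 of 5 macrophage and 0 of 10 pluripotent cell markers. Parietal endoderm markers fell in 11 of 12 cases in sh4 relative to shCTR cells under retinoic acid, with sums of 179 to 189 in sh4 cells and 437 to 473 in shCTR cells, and 3 rose and 6 fell in untreated cells, with sums of 69.9 to 78.7 and 78.2 to 87.3. Of 10 pluripotent cell markers, all well above background on every array, 1 rose and 7 fell in sh4 relative to shCTR cells under retinoic acid (sums of 66.1 to 77.4 and 114 to 122), and 0 rose and 3 fell in untreated cells (sums of 322 to 359 and 358 to 436). Among the 3 was Zfp42, at -0.47 (limma adjusted p = 0.034). Its call was lost with quantile normalization, without the arrays rated for evaluation, and on leaving out any 1 of the untreated arrays. Trophoblast markers rose in 4 and fell in 3 of 9 cases under retinoic acid, with sums of 12.5 to 14.9 in sh4 cells and 8.81 to 9.47 in shCTR cells, and rose in 7 and fell in 0 of 9 in untreated cells, with sums of 7.34 to 8.90 and 5.28 to 5.73. Of 9 neural markers 4 rose and 1 fell in sh4 relative to shCTR cells under retinoic acid, with sums of 5.77 to 7.14 in sh4 cells and 4.85 to 5.48 in shCTR cells, and 3 rose and 2 fell in untreated cells, with sums of 3.27 to 4.11 and 4.92 to 6.47. Of 8 fibroblast markers 1 rose and 1 fell under retinoic acid, with sums of 8.16 to 8.41 in sh4 cells and 6.09 to 7.79 in shCTR cells. In untreated cells 4 fibroblast markers rose and 2 fell, while their sum was lower, at 1.03 to 1.13 in sh4 cells and 2.35 to 2.65 in shCTR cells. The largest part of the shCTR sum was Thy1, which fell from a log2 level of 1.06 to -0.65 in sh4 cells. Of the 4 that rose, Col3a1, Dcn and Lum were not well above background in untreated shCTR cells. Dcn was at least 2.43-fold and Lum at least 1.01-fold higher in untreated sh4 cells. Of 5 measured macrophage markers 0 rose and 2 fell under retinoic acid, with sums of 0.414 to 0.448 in sh4 cells and 0.803 to 0.843 in shCTR cells, and limma called 0 in untreated cells, with sums of 0.209 to 0.313 and 0.198 to 0.354. The part of these markers in the changes of the 4 members was not tested.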

How the data were processed

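Per the labels, 500 ng of total RNA from each of 15 mouse embryonic stem cell samples was labelled with Cy3 and hybridised to a 1-colour Agilent array. The deposited scanner files hold spot intensity; the software (Feature Extraction 10.7.3.1) subtracted background and detrended each array without scaling between arrays, per the file headers. A value table of log2 units was deposited by the authors as well. How they made it is not stated in any source here; it served as an alternative, is on the log2 scale, and its centring was not needed for differences. From 43020 non-control spots, 39429 probes were formed, 117 probes were left out because an array had no unmarked spot of theirs, and log2 intensity minus the array's 75th percentile was used. A probe was kept if any group had at least 3 arrays marked well above background, and the brightest kept probe stood for a gene, which left 25145 of 31896 gene names.

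Groups were compared with limma 3.58.1 in R 4.3.3 (package data.table, version 1.17.8), in 1 model of 4 group means over 15 arrays, two-sided, with Benjamini-Hochberg adjustment over all genes; the fit and the permutation test were tested on simulated data. The number of arrays limits the precision, as does signal near background for dim probes. Where a probe was below background in a whole group, its fold is a bound against the higher of its own signal and the array's lowest signal well above background. Alternatives covered the background, the scaling, the filter, the probe choice, blocks, the arrays in the fit and leaving out each array. The named genes were the members, Phf19, the 5 genes most correlated with each member, and up to 3 called genes of largest change in each list and comparison. Afp, Ihh, Spink1 and Soat2 were added after their values were seen. The members, the lists and the tests were chosen with earlier results of these data known. The hairpin and slide were not confounded. Replicate numbers and slides largely coincide, and what follows for pairing is given with the effects of processing. Probe coordinates are the files', on mm9, and promoters are RefSeq's, on GRCm38.p6, with no conversion between them.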

Additional observations from a re-analysis of the deposited data

Results flagged for a closer look

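The effect of the sh4 hairpin differed between cells with and without retinoic acid for all 4 genes, by the interaction term of limma over 15 arrays. The difference, sh4 effect with retinoic acid minus the effect without, was -1.70 for Cubn, -1.70 for Amn, -2.32 for Lrp2 and -2.41 for Dab2 on the log2 scale. In 12 groups of 4 arrays that were checked for a value far from the rest, none was found among the 4 genes; groups of 3 arrays were not checked.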

How the results depend on the processing

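The calls of the 4 genes kept their direction and their side of the threshold under the alternatives run for each of them, of 26 in all, apart from those named here; the fit with only the groups compared gives no interaction, and the second probe exists for Cubn alone. Dab2 in untreated sh4 against shCTR cells, never called, had a change of -0.059 with normexp background, -0.016 with quantile normalization and -0.0085 in the authors' value table, and between -0.068 and 0.096 on leaving out an array. Amn under retinoic acid in sh4 cells, also never called, was at -0.00010 with quantile normalization. Lrp2 under retinoic acid in sh4 cells was at 0.41 (limma adjusted p = 0.068) with only the groups compared, and between 0.33 and 0.52 on leaving out an array. Leaving out an array left 0 to 22 of the 24 differences between members past the threshold, and the other alternatives 21 to 23. With normexp background the number of genes called was 3391 for sh4 against shCTR under retinoic acid, 4643 for the same in untreated cells and 3053 for the interaction, against 5327, 7171 and 5144; the cause was not tested. That setting put 36.2% of the called genes higher in shCTR cells with retinoic acid over untreated ones, against 46.4%, and moved the median of all genes from -0.12 to -0.23 there. The deviations of arrays of different groups with the same replicate number had correlations of -0.53 to 0.58 over 21 pairs. For arrays on the same slide the range was 0.12 to 0.61. Number and slide coincide except for replicates 3 and 4 of the treated sh4 cells. With the other arrays of its number, replicate 3 gave -0.53 to -0.35 and replicate 4 gave 0.41 to 0.56. Whether the numbers pair the samples therefore cannot be settled here. In a fit with the replicate block the changes under retinoic acid were -2.99 for Cubn, -2.81 for Amn, -1.30 for Lrp2 and -2.38 for Dab2, and no member's call changed. Other named genes kept their call in 2878 of 2919 repeats and lost it, with the same direction, in 41; counts over lists stayed within 1.5 times in 2589 of 2728. Signal over background limits the second Cubn probe and Ttr in untreated cells, and Apoa1 in treated sh4 cells and in untreated cells.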
